A study of Sus scrofa with 13 samples.

Results

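Portal infusion of stromal cells was compared with no infusion in pig livers after ischemia and reperfusion. The comparison used 7 of the 13 liver libraries of the series, 4 portal infusion libraries and 3 ischemic control libraries, all chosen by the group their labels give, and covered every gene that passed a filter on low counts. All 7 livers came from female Yorkshire pigs, and their blood supply was clamped for 45 min at body temperature and then restored for 6 h. The ischemic controls received no cells, and the portal group received 3 M (M for mega) human bone marrow-derived mesenchymal stromal cells (BM-MSCs) per kg body weight through the portal vein. A further 4 livers that received the same dose through the hepatic artery entered the statistical fit and are given as reference values. So are 2 baseline libraries without ischemia, called baseline livers below. Per the paper, liver biopsies were taken before clamping and again after 6 h of reperfusion. A baseline library may therefore come from the same pig as another library, and the labels do not name the pig. The fit treated all 13 libraries as independent. The infused cells were human and the reads were aligned to the pig genome, so that a human read that matches a pig gene cannot be told apart from a pig read.

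The portal vein brings blood from the gut and spleen into the hepatic sinusoids, where endothelial cells, Kupffer cells (the resident macrophages of the liver) and stellate cells line the path of any infused cell. When blood returns after ischemia, hepatocytes and Kupffer cells meet an oxidative burst, complement is activated, cytokines and chemokines are released, and neutrophils are recruited. Mesenchymal stromal cells are studied in this setting because they secrete factors that act on immune cells and on repair.

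Reads counted on genes numbered 32966093, 18975413 and 33133296 in control livers 1, 2 and 3, and 20563848, 31251501, 29403983 and 21444917 in portal livers 1, 2, 3 and 4. A pair of portal livers stood apart from the rest in how many genes they showed. Reads fell on 13581 genes in portal 1 and 14264 in portal 4, against 16993 to 20282 genes in the other 5 libraries. Of the 16481 genes tested, 20.8% had no read in portal 1, 16.2% in portal 4 and 7.40% in control 2, and 1.93% to 3.99% in the other libraries. The first principal component of the 500 most variable genes held 69.7% of the variance and placed portal 1, portal 4 and control 2 away from the other 4, with scores of 97.1, 28.0 and 12.7 for these 3. Portal 2 and portal 3 were the most alike pair of the 7 (r = 0.970). Portal 1 and portal 3 had r = 0.765. Both r values are of normalized values on a log scale across genes, which are not independent replicates. The total count, the number of genes detected, the mitochondrial share and the share of the 10 most counted genes gave adjusted p between 0.495 and 0.629 (exact permutation tests, two-sided, Benjamini-Hochberg over 4 measures), and with 35 arrangements of 4 against 3 livers the smallest possible p is 0.0286. In arterial 1, 11.7% of the genes tested had no read, against 9.19% in arterial 2. Arterial 2 was left out only in the fits over the 7 libraries. Because portal 1, portal 4 and control 2 recur below, values without them and arterial 1 are given beside several results. The part of these 4 libraries in the other results was not tested. Of 39 gene lists described below, 15 had a median log2 fold change of the opposite sign without these 4 libraries, 14 of them turning from below to above 0.

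**Figure D1:**
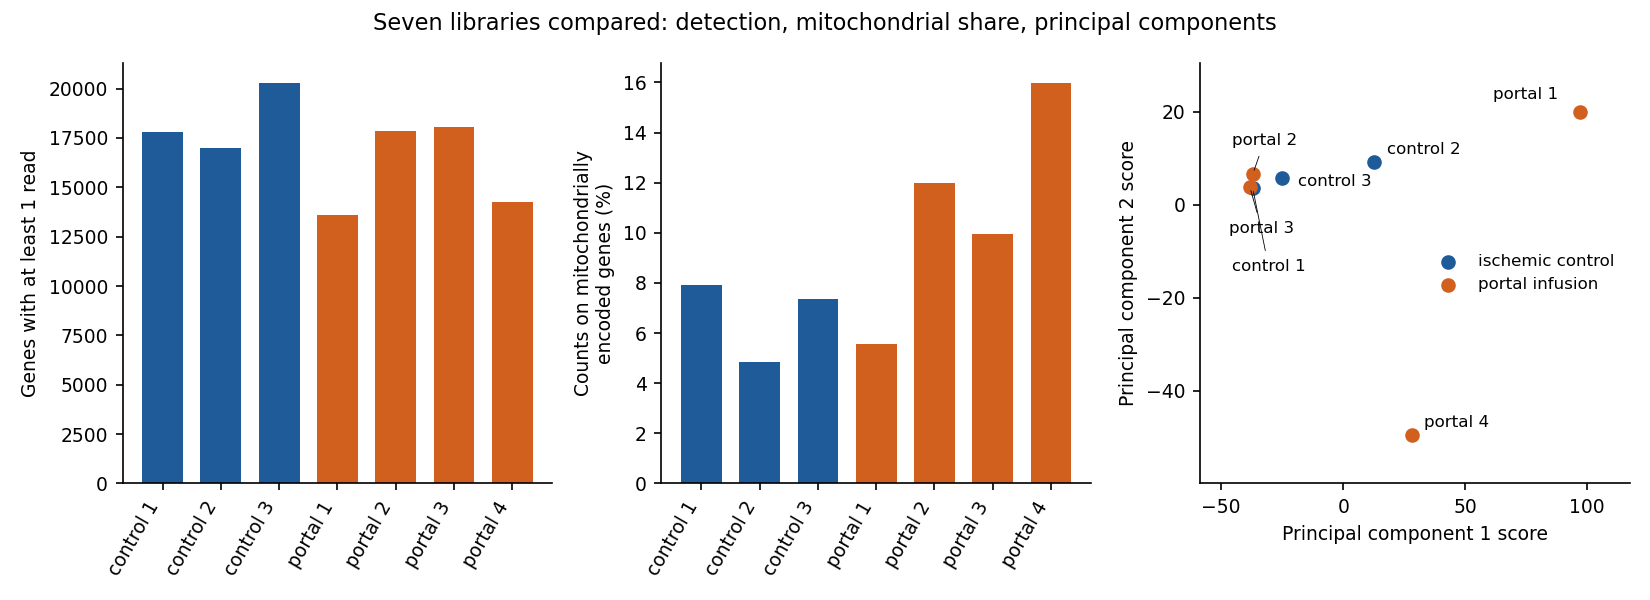
Genes with at least 1 read (left), percent of all counts on mitochondrially encoded genes (middle) and scores on the first 2 principal components (right) for the 3 ischemic control (blue) and 4 portal infusion (orange) libraries. Portal 1 and portal 4 have the fewest genes detected, 13581 and 14264, and lie away from the cluster of portal 2, portal 3, control 1 and control 3 on the right panel.

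No gene differed between portal infusion and ischemic control after adjustment. By the quasi-likelihood test of edgeR, adjusted after Benjamini and Hochberg, 0 of 16481 genes passed the threshold of 0.05 (0% called), and the smallest adjusted p was 1. Without adjustment 460 genes (2.79%) had p under 0.05, 187 higher (1.13%) and 273 lower (1.66%) after portal infusion. DESeq2 over the same 13 libraries called 4 of 24526 genes (0.0163%), namely DDIT4L, PCSK1N and INSIG1, which were lower, and 1 gene without a symbol, which was higher, and over the 7 libraries alone it called 3 of 22861 (0.0131%), all higher and without a symbol. The common biological coefficient of variation was 0.729, and the median log2 fold change over all genes tested was -0.02, with 8549 genes (51.9%) under 0 and 7930 (48.1%) above 0. The values of the 4 portal livers did not overlap with those of the 3 controls for 613 genes (3.72%), of which 229 (1.39%) lay above and 384 (2.33%) below the controls. The genes and groups below are therefore described by their values, and no direction given for them passed the adjusted edgeR test.

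**Figure D2:**
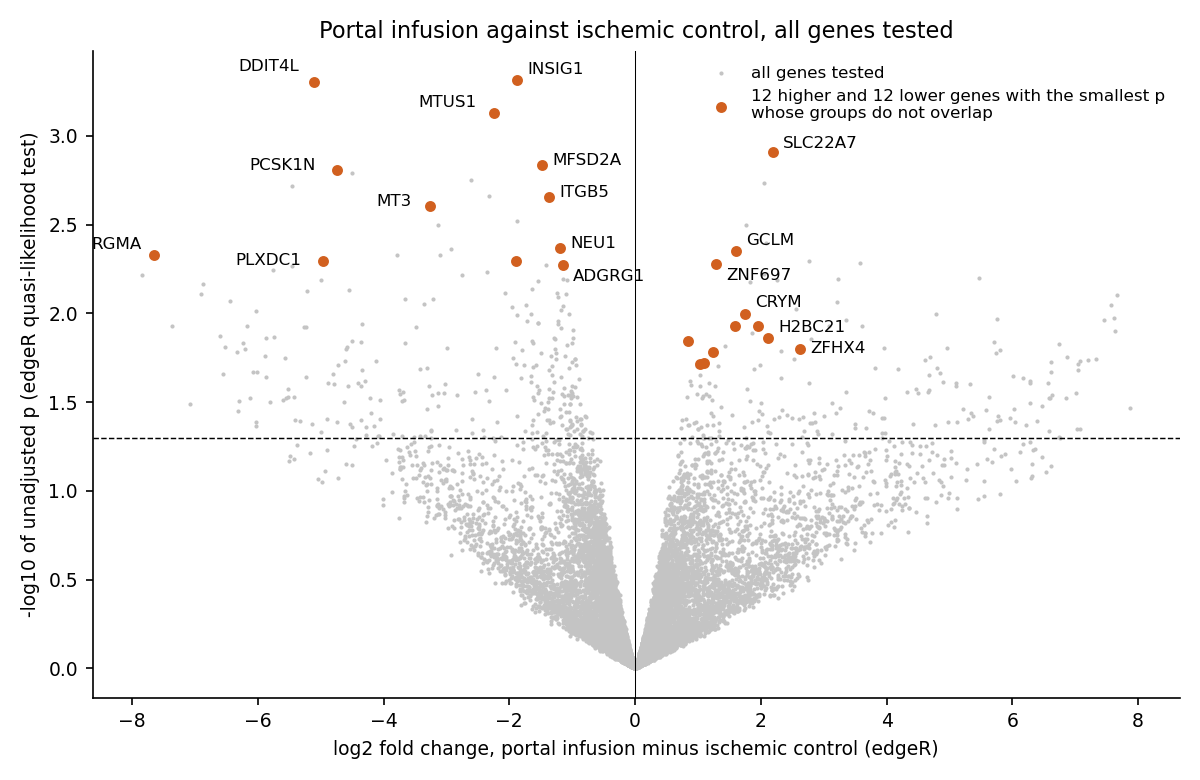
Log2 fold change of portal infusion minus ischemic control (x axis) against -log10 of the unadjusted edgeR p (y axis) for 16481 genes, with a dashed line at the level of 0.05. The labelled points are among the 12 higher and 12 lower genes with the smallest p whose groups do not overlap, and they sit among unlabelled genes of similar height, with INSIG1 and DDIT4L at the top on the left and SLC22A7 highest on the right.

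INSIG1 had the smallest p among named genes. Its product holds the sterol sensor in the endoplasmic reticulum and so restrains cholesterol synthesis. Normalized counts (counts divided by DESeq2 size factors) of INSIG1 were 16723, 14277 and 11821 in control livers 1 to 3 and 4333, 6107, 3692 and 1743 in portal livers 1 to 4. Every portal liver lay below every control, with a log2 fold change of -1.87 (SE 0.42) and an unadjusted p of 0.000485 in edgeR, while the adjusted p of DESeq2 was 0.0449. The 4 arterial livers, at 4848 to 7418, also lay below the controls and overlapped with the portal livers, and the baseline livers were at 10329 and 7042. Leaving out any 1 of the 7 libraries kept the INSIG1 log2 fold change between -2.19 and -1.62. The gene lies on chromosome 18 from 2885494 to 2898758 of Sscrofa11.1 in the RefSeq annotation.

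Cholesterol synthesis genes as a group had mostly lower values after portal infusion, but most of them overlapped. Of 28 genes tested, 24 had a log2 fold change under 0, 4 had unadjusted p under 0.05, all of them lower (1.66% of all genes), and the median was -0.55 against -0.02 for all genes. The list includes INSIG1, which is 1 of the 4 and the only member whose groups did not overlap. IDI1, which isomerizes isopentenyl diphosphate, was at 331, 6232 and 4877 in the controls and 905, 644, 632 and 1139.7 in the portal livers. Control 1 lay below all portal livers for IDI1 while control 2 and control 3 lay above them, so the log2 fold change of -2.21 (SE 0.81) rested on those 2 controls. The sterol enzymes MSMO1 and SC5D had the same arrangement of a low control 1, with log2 fold changes of -1.37 (SE 0.61) and -1.03 (SE 0.42), and of -0.65 and -0.28 without portal 1, portal 4, control 2 and arterial 1. Without those 4 libraries the median of the group was -0.13. MVD, which catalyses a step before IDI1, overlapped widely, at 364, 2665 and 1169 in the controls and 2240.3, 203, 227 and 1262 in the portal livers.

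A pair of genes of low counts were nearly silent after portal infusion. DDIT4L, an inhibitor of mTOR signalling related to DDIT4, was at 22.9, 38.5 and 83.8 normalized counts in the controls and at 0, 1.87, 3.01 and 0 in the portal livers, with arterial livers at 18.9 to 67.8 and baseline livers at 37 and 29.5. Its log2 fold change was -5.11 (SE 1.15) with an unadjusted edgeR p of 0.000493 and an adjusted DESeq2 p of 0.00234. PCSK1N, whose product proSAAS binds a prohormone convertase, was at 32.4, 66.5 and 72.3 in the controls and 0, 5.6, 2.01 and 0 in the portal livers, and the log2 fold change was -4.74 (SE 1.22) with an adjusted DESeq2 p of 0.00301. For both genes the 2 portal livers at 0 were portal 1 and portal 4, the libraries with the fewest genes detected. In portal 2 and portal 3, whose numbers of genes detected lay within the range of the controls, both genes still lay below the lowest control, and without the 4 libraries the log2 fold changes were -4.38 for DDIT4L and -3.72 for PCSK1N. RGMA, a co-receptor of bone morphogenetic proteins, was at 16.6, 7 and 47 in the controls and at 0 in all 4 portal livers. Taking 3 counts per library as the limit that a count of 0 allows, RGMA was at least 7.09-fold lower, and at least 3.56-fold lower without control 3. Arterial 1 and arterial 2 were also at 0 for RGMA. PLXDC1 was at 7.91, 8.76 and 18.1 in the controls, and 0, 0.934, 0 and 0 in the portal livers. These values are close to the limit of detection.

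Among genes of higher counts, MFSD2A, MTUS1 and ITGB5 lay below the controls in every portal liver. MFSD2A, a transporter of lysophosphatidylcholine, was at 4914, 10953 and 5105 in the controls and 1996, 2879, 2017 and 3176 in the portal livers (log2 fold change -1.49 (SE 0.38), unadjusted p = 0.00145), and MTUS1, which codes for a microtubule-associated protein, at 2444, 8586 and 1758 and 663, 734, 813 and 1391 (log2 fold change -2.25 (SE 0.53)). Control 2 was the highest library for both, and without it the log2 fold changes were -1.06 and -1.29. ITGB5, the integrin beta 5 subunit, was at 1977, 1623 and 1047 in the controls and 672, 485, 331 and 1002 in the portal livers (log2 fold change -1.37 (SE 0.37)), with control 3 and portal 4 close together. The baseline livers lay below the controls for MFSD2A (1209 and 1325) and ITGB5 (639 and 731), and at 687 and 1799 for MTUS1. The control livers enter both of these comparisons.

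The remaining lower genes of this kind had smaller differences or leaned on 1 control. NEU1, the lysosomal sialidase, was at 914, 602 and 833 in the controls and 401, 373, 403 and 227 in the portal livers (log2 fold change -1.20 (SE 0.35)). ADGRG1, an adhesion G protein-coupled receptor, was at 454, 515 and 903 and 284, 281, 267 and 324, the portal livers lying within a narrow range (log2 fold change -1.15 (SE 0.35)). UPP1, uridine phosphorylase, had a log2 fold change of -1.89 (SE 0.57) with control 2 at the top, and -1.31 without control 2. The metallothionein MT3 was at 73.6, 749 and 36.1 in the controls and 32.7, 26.2, 26.1 and 33.1 in the portal livers, and its log2 fold change of -3.25 (SE 0.89) was -0.97 without control 2.

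SLC22A7 led the genes that were higher after portal infusion. It codes for OAT2, an organic anion transporter of hepatocytes. Its normalized counts were 478, 613 and 1256 in the controls and 1769.5, 3767, 5722 and 3056 in the portal livers, so that the lowest portal liver lay above the highest control, with a log2 fold change of 2.19 (SE 0.55) and an unadjusted edgeR p of 0.00123. Arterial livers were at 949 to 1961 and baseline livers at 3429 and 1261. Leaving out 1 library at a time gave 1.83 to 2.68.

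Both subunits of glutamate-cysteine ligase, the enzyme that sets the rate of glutathione synthesis, lay above the controls in all 4 portal livers. The modifier subunit GCLM was nearly constant in the controls at 1232, 1291 and 1244 and reached 4564, 3297, 2716 and 5208 in the portal livers (log2 fold change 1.60 (SE 0.48), unadjusted p = 0.00446). The catalytic subunit GCLC was at 483, 506 and 639.6 in the controls and 765, 2088, 1584 and 804 in the portal livers (log2 fold change 1.26 (SE 0.51), unadjusted p = 0.0257). Portal 1 and portal 4 were the highest portal livers for GCLM and the lowest for GCLC, so the subunits did not follow each other within the group. Arterial livers ranged from 1869 to 7991 for GCLM and from 862 to 3343 for GCLC. Of the 19 other genes tested on a list of antioxidant genes and targets of the transcription factor NRF2, 13 had a log2 fold change under 0. The median of the 19 was -0.16, and 0.02 without portal 1, portal 4, control 2 and arterial 1. GCLM and GCLC were the only members of the list with p under 0.05 (1.13% of all genes were higher at that p).

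Transcription factors of hepatocyte identity included 3 with unadjusted p under 0.05, all higher after portal infusion (1.13% of all genes). CEBPA, a factor of hepatocyte differentiation, was at 540.3, 562 and 1080.4 in the controls and 2382, 1165, 1320.3 and 1310.2 in the portal livers (log2 fold change 1.03 (SE 0.39)), control 3 coming close to portal 2. NR1I2, the pregnane X receptor, was at 161, 350.2 and 367 and 803, 404, 606 and 639 (log2 fold change 1.03 (SE 0.40)). FOXA2, a pioneer factor of the liver, overlapped, with 204, 413 and 327 in the controls and 337, 679, 447 and 1076 in the portal livers (log2 fold change 0.99 (SE 0.45)). The list as a whole was balanced, 10 of 21 genes having a log2 fold change under 0 with a median of 0.01. Without portal 1, portal 4, control 2 and arterial 1 the median was 0.21. In that fit 5 of the 21 had p under 0.05 and lower values, and 2 had higher values. Of all 15544 genes tested in that fit, 846 were lower and 608 higher at that p. The log2 fold change of CEBPA was 0.63 in that fit and 0.80 without portal 1.

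Several other genes lay above the controls in every portal liver. CRYM, a thyroid hormone-binding protein, was at 48.3, 80.6 and 152 in the controls and 586, 208, 254 and 259 in the portal livers (log2 fold change 1.74 (SE 0.59)). APPL2, an adaptor protein of endosomes, was at 95.7, 89.3 and 99 and 276, 220.4, 193 and 240.5 (log2 fold change 1.25 (SE 0.46)), and the zinc finger gene ZNF697 at 366, 378 and 307 and 848, 1077, 964 and 590.1 (log2 fold change 1.29 (SE 0.39)). The ranges were narrow in both groups for APPL2 and the gap was wider than either range. RNF144B, a ubiquitin ligase, had a log2 fold change of 1.95 (SE 0.68), BTBD19 of 1.59 (SE 0.55), the forkhead factor FOXJ3 of 0.84 (SE 0.30), TNRC6B, a component of microRNA silencing complexes, of 1.09 (SE 0.41), and the zinc finger gene ZFHX4 of 2.62 (SE 0.96). ZFHX4 was at 17.4, 1.75 and 22.4 in the controls and 86.8, 29, 61.2 and 195 in the portal livers, portal 4 being the highest, and its log2 fold change was 1.98 without portal 4 and 1.18 without portal 1, portal 4, control 2 and arterial 1. The histone gene H2BC21 was at 41.1, 66.5 and 44.1 in the controls and 284, 267, 243 and 90.8 in the portal livers, portal 4 being nearer to the controls than to the other portal livers.

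**Figure D3:**
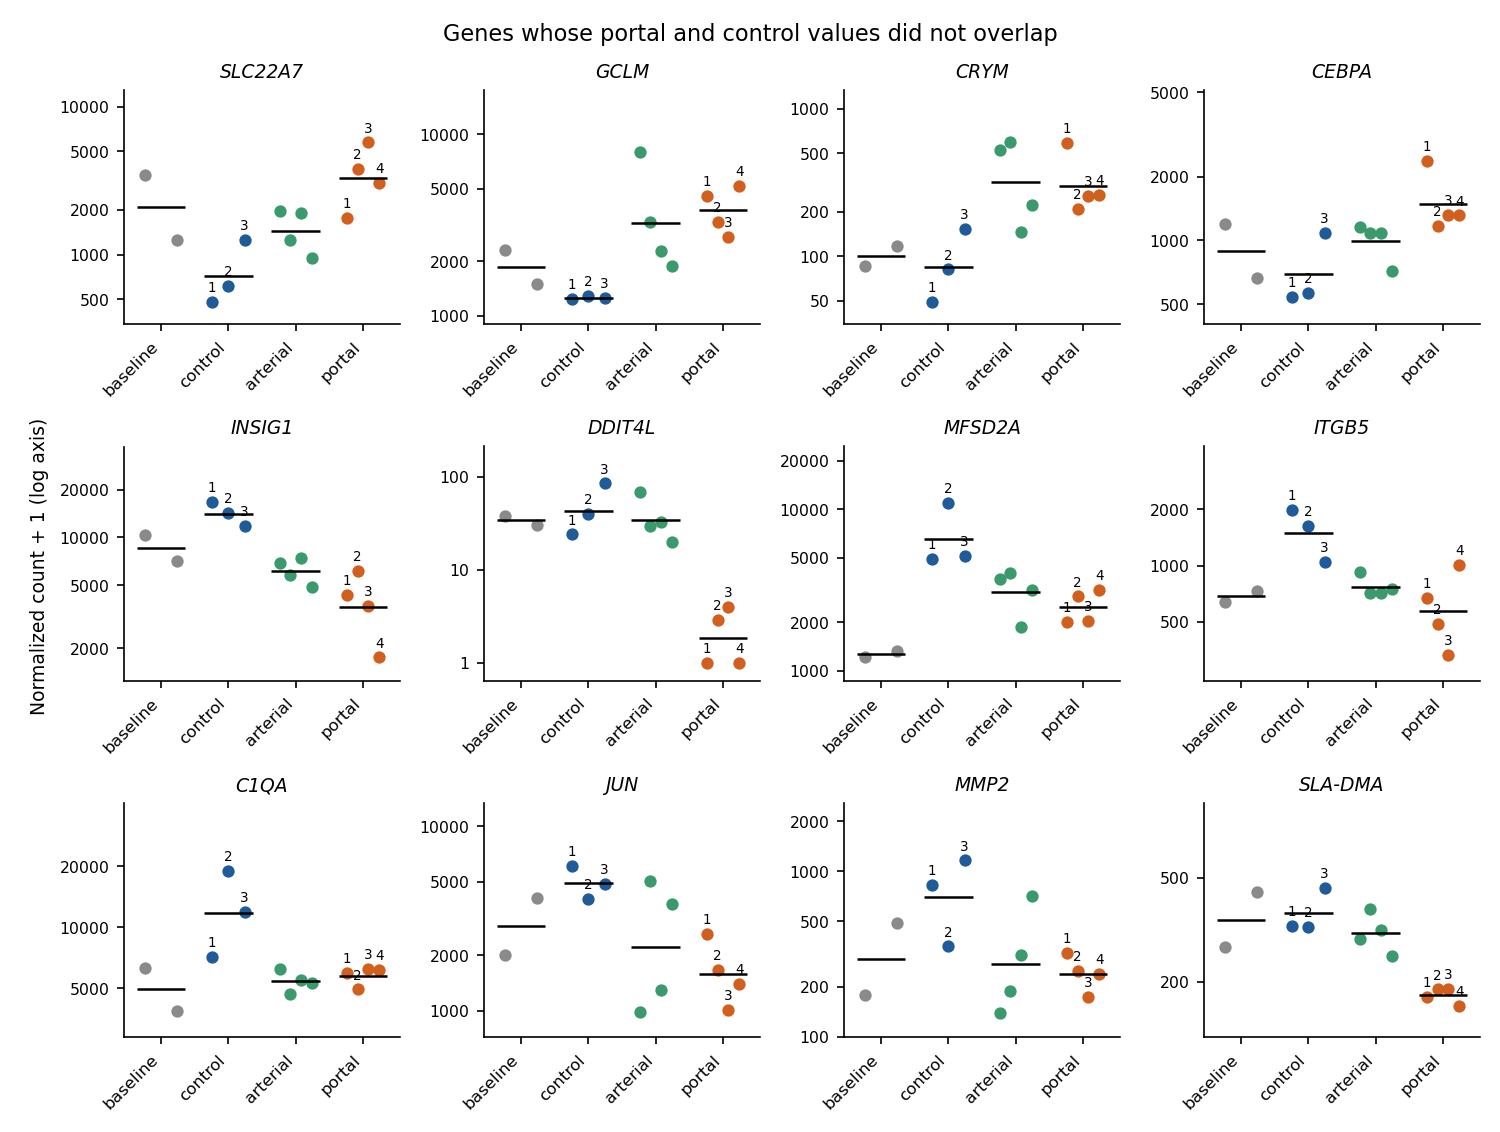
Normalized count plus 1 on log axes for 12 genes in 2 baseline (grey), 3 ischemic control (blue), 4 arterial infusion (green) and 4 portal infusion (orange) livers, with bars at the mean of the log values and numbers naming control and portal livers. In each panel the portal points lie wholly above or wholly below the control points, while arterial points often fall between or across them, as for GCLM at 1869 to 7991.

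Macrophage genes had mostly lower values after portal infusion, led by the subunits of C1q, the first component of the classical complement pathway, which Kupffer cells produce. C1QA was at 7108, 18969.6 and 11901 in the controls and 5910.3, 4923, 6199 and 6138 in the portal livers, C1QC at 8519, 16382 and 12151 and 5659.8, 6165, 7471 and 5782, and C1QB at 7036, 15317 and 11878 and 7793, 4582, 5457 and 4756. All portal livers lay below all controls for C1QA and C1QC, whereas portal 1 was above control 1 for C1QB. Their log2 fold changes were -1.14 (SE 0.36), -0.99 (SE 0.35) and -1.05 (SE 0.35), with unadjusted p of 0.00637, 0.0138 and 0.0101 in edgeR. The 3 genes neighbour each other on chromosome 6. CSF1R, the receptor for the macrophage growth factor CSF1, was at 2018, 6054 and 3748 in the controls and 2306, 1602, 2062 and 2276 in the portal livers, where only control 1 fell among the portal values (log2 fold change -0.95 (SE 0.36), and -0.56 without control 2). Of 20 macrophage markers tested, 18 had a log2 fold change under 0 (51.9% of all genes), and the median was -0.74. Of the 20, 4 had p under 0.05, all lower (1.66% of all genes). The summed share of all counts on the list ran from 0.289 to 0.476% in the controls and from 0.187 to 0.25% after portal infusion, so the groups did not overlap. In bulk tissue a lower value can mean fewer macrophages or less RNA per macrophage, and these cannot be told apart. The median was -0.27 without portal 1, portal 4, control 2 and arterial 1, and in that fit -0.76 for C1QA. MARCO, a scavenger receptor of macrophages, was at 200.1, 452 and 215 in the controls and 1089.9, 315, 243 and 784 in the portal livers, higher in portal 1 and portal 4.

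Complement genes as a whole gave a median of -0.16 with 20 of 24 under 0. The 5 with p under 0.05 were lower (1.66% of all genes). The median was 0.12 without portal 1, portal 4, control 2 and arterial 1. Besides the C1q genes these were C5AR1, the receptor for the anaphylatoxin C5a, at 517, 760 and 1047 in the controls and 482, 410, 426 and 260.1 in the portal livers (log2 fold change -1.002, SE 0.45), and C7, a part of the membrane attack complex, whose values overlapped (log2 fold change -1.64 (SE 0.74)). SLA-DMA, which loads peptides onto class II molecules, was at 328, 324 and 458 in the controls and within 161 to 187 in the portal livers (log2 fold change -1.10 (SE 0.36), unadjusted p = 0.00781). It was the only antigen presentation gene of 14 tested with p under 0.05 (1.66% of all genes were lower at that p). The median of that list was -0.21.

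Matrix and stromal genes had mostly lower values after portal infusion, with overlap for most of them. Of 27 stellate cell and matrix genes, 23 had a log2 fold change under 0, and the median was -0.79, or -0.89 without the 4 libraries. Of the 27, 7 had p under 0.05, all lower (1.66% of all genes). MMP2, a gelatinase of stellate cells, was at 822, 350.2 and 1159.9 in the controls and 319.7, 248, 173 and 239 in the portal livers (log2 fold change -1.73 (SE 0.57)), and COL4A1, a basement membrane collagen, at 7898, 4646 and 5427 and 3345, 3809, 3051 and 2287 (log2 fold change -0.98 (SE 0.41)). Both were below every control in every portal liver. The fibrillar collagen genes spread widely, with COL1A1 at 10109.5, 2719 and 20604 in the controls and 3141, 1917, 640.1 and 1326 in the portal livers (log2 fold change -2.75 (SE 0.86)) and COL1A2 at 4546, 1379.9 and 4557 and 721, 1939.9, 700.3 and 303 (log2 fold change -1.96 (SE 0.65)). Control 2 lay within the portal values for both, and control 1 and control 3 lay above them. The log2 fold change of COL1A1 was -1.98 without control 3 and -3.57 without the 4 libraries. CCN2, a growth factor of fibrosis, was high in control 1 alone at 2688, 392 and 470.5 against 371, 660.3, 336 and 293 in the portal livers, and its log2 fold change of -1.57 was -0.05 without control 1. The last 2 of the 7, the proteoglycan gene DCN and the collagen crosslinker LOX, overlapped as well, with log2 fold changes of -1.44 (SE 0.61) and -1.56 (SE 0.72), that of DCN being -0.94 without control 1 and that of LOX -2.62 without the 4 libraries.

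Markers of mesenchymal stromal cells, the type of cell that was infused, had mostly lower values in the portal livers. Stellate cells also express several of the 29 such genes tested, and the list above shares them in part. Of the 29, 21 had a log2 fold change under 0, and the median was -0.72. Of the 29, 8 had p under 0.05, all lower (1.66% of all genes) and including COL1A1, COL1A2 and LOX. Without portal 1, portal 4, control 2 and arterial 1 the median was -0.58. In that fit 9 genes of the list had p under 0.05 and lower values, and 3 had higher values. Of all 15544 genes tested in that fit, 846 were lower and 608 higher at that p. ACTA2, the smooth muscle actin, was at 2076, 1586 and 583 in the controls and 486, 8262, 4328 and 497 in the portal livers. Portal 2 and portal 3 lay above every control for ACTA2 and portal 1 and portal 4 below them. Its log2 fold change was 1.28 (SE 0.95), and 0.33 without portal 2. The exact permutation p for ACTA2 was 0.743 (two-sided, unadjusted). Without portal 1, portal 4, control 2 and arterial 1 the log2 fold change was 2.24. That fit kept only portal 2 and portal 3 against control 1 and control 3, a choice made on these same counts. The value of 2.24 therefore cannot decide whether ACTA2 differs. PDGFRB, a receptor of pericytes and stromal cells, was at 2305, 2403 and 1945 in the controls and 1666, 1216, 1086 and 997 in the portal livers (log2 fold change -0.88 (SE 0.41)), and the intermediate filament gene VIM at 1459, 1379.9 and 2612 and 1172, 1340.3, 1025 and 664 (log2 fold change -0.82 (SE 0.38)). SPARC, COL6A2 and COL6A3 had log2 fold changes of -1.91 (SE 0.69), -2.35 (SE 0.73) and -1.46 (SE 0.68) with overlapping groups, and without control 3 that of COL6A2 was -1.57. The counts are of pig genes and do not separate reads of the liver from any matching reads of the infused human cells. Among 23 genes for factors that stromal cells are known to secrete, 3 had p under 0.05, all lower (1.66% of all genes). FGF2, a fibroblast growth factor, was at 396, 123 and 157 in the controls and 27.7, 94.3, 84.3 and 33.1 in the portal livers (log2 fold change -1.93 (SE 0.73), and -1.19 without control 1), and GDF15, a stress-induced cytokine, at 2209, 1791 and 648 and 356, 677, 289 and 469.9 (log2 fold change -1.82 (SE 0.72)).

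The third gene for a secreted factor or its synthesis was PTGS2, the inducible cyclooxygenase, at 783, 156 and 138 in the controls and 102, 169, 59.2 and 29.4 in the portal livers, and its log2 fold change of -2.05 (SE 0.84) was -0.69 without control 1. JUN, an immediate early transcription factor, was at 6088, 4019 and 4848 in the controls and 2601, 1673, 1009 and 1395 in the portal livers, with no overlap (log2 fold change -1.64 (SE 0.53), unadjusted p = 0.00731). JUNB was at 9588, 15588 and 3852 and 5540.2, 4084, 3863 and 3333, control 3 falling among the portal livers (log2 fold change -1.23 (SE 0.43), and -0.75 without control 2). Of 25 immediate early genes, 22 had a log2 fold change under 0 with a median of -0.56, which was -0.10 without the 4 libraries. NOCT, a deadenylase of the circadian system, was at 3029, 2194 and 916 in the controls and 1048, 729, 419 and 1018 in the portal livers (log2 fold change -1.41 (SE 0.43)).

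Inflammatory cytokine and chemokine genes included several whose large differences came from 1 control liver. TNF was at 13.4, 4887 and 23.1 in the controls and 47.8, 13.1, 38.1 and 47.8 in the portal livers, so that control 2 alone was high and the other controls lay among the portal livers. The log2 fold change of -5.46 (SE 1.45) had an unadjusted p of 0.00191 in edgeR, and without control 2 it was 0.92. The chemokine genes CCL4, at 37.2, 8372 and 412 and 424, 250.3, 118 and 51.5, and CCL3L1, at 24.5, 5542 and 182 and 179, 50.4, 43.1 and 67.5, had the same arrangement, with log2 fold changes of -3.79 and -4.50, and -0.18 and -0.38 without control 2. Control 2 was also the highest control library for the neutrophil gene S100A8, at 365, 5752 and 973 in the controls and 1219.6, 898, 145 and 1134 in the portal livers. Of 23 cytokine and feedback genes 5 had p under 0.05 and of 19 chemokine and receptor genes 4, all lower (1.66% of all genes). The medians over the lists were -0.31 and -0.52.

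The remaining genes of these lists with p under 0.05 were CCL26, OSM, IL1R2, IL1A and CCL8, beside PTGS2 above. CCL26, a chemokine for eosinophils, was at 49, 42 and 139 in the controls and 0, 0, 5.02 and 0 in the portal livers, with arterial livers at 25, 0, 3.24 and 10.5 (log2 fold change -5.76 (SE 1.78), unadjusted p = 0.00572). OSM, a cytokine of the interleukin-6 family, was at 21.4, 24.5 and 119 and 0, 11.2, 5.02 and 0 (log2 fold change -3.67 (SE 1.54)), and -2.44 without control 3. IL1R2, the decoy receptor for interleukin-1, was at 256, 727 and 289.8 in the controls and 131, 251, 129 and 145 in the portal livers (log2 fold change -1.36 (SE 0.55), -0.79 without control 2 and -0.51 without the 4 libraries). For CCL26, OSM and IL1R2 all portal livers lay below the controls, but OSM had no count in portal 1 and portal 4, and CCL26 had counts in portal 3 alone. Interleukin-1 alpha (IL1A) was at 13.4, 273 and 4.34 in the controls and 0, 4.67, 4.01 and 0 in the portal livers, another gene with control 2 far above the rest (log2 fold change -5.27 (SE 1.84), and -1.97 without control 2), and the chemokine gene CCL8 at 1.58, 289 and 7.95 and 0, 8.41, 6.02 and 0 (log2 fold change -4.60 (SE 1.69), and -0.39 without control 2).

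Neutrophil markers had a median of -0.79 with 14 of 15 under 0. Of the 15, 2 had p under 0.05, both lower (1.66% of all genes). LTF, the granule protein lactoferrin, was at 195, 324 and 554 in the controls and 69.2, 195, 89.3 and 113 in the portal livers, control 1 and portal 2 nearly touching (log2 fold change -1.63 (SE 0.62)). NCF4, a subunit of the NADPH oxidase, had a log2 fold change of -1.03 (SE 0.44), and -0.28 without control 2. The summed share of the list was low, from 0.00948 to 0.051% in the controls and from 0.00644 to 0.0203% after portal infusion, and overlapped. Lymphocyte and natural killer cell markers went the other way in the median, 0.40, with 17 of 25 above 0 and 0 with p under 0.05. F13A1, the factor XIII subunit made by macrophages, was at 1004, 560.4 and 2057 in the controls and 408, 459, 364 and 475 in the portal livers (log2 fold change -1.55 (SE 0.64), and -0.95 without control 3), and the urokinase gene PLAU at 323, 373 and 296 and 101, 207, 102 and 129 (log2 fold change -1.31 (SE 0.54)). Neither overlapped, while the 30 coagulation genes together had a median of -0.13, or 0.14 without the 4 libraries. The other coagulation row with p under 0.05 is named VWF in the count table and ANO2 in a second table of the same identifiers, so it is not assigned to either gene here (log2 fold change -1.65 (SE 0.66)).

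Interferon-stimulated genes were high in 1 portal liver. MX1, an antiviral GTPase, was at 445, 739 and 7688 in the controls and 2041, 1471, 34013 and 276 in the portal livers, and RIGI, the sensor of foreign RNA, at 569.6, 243 and 1586 and 70.5, 1236, 12117 and 180.3. Portal 3 had the highest value of both, control 3 the highest of the controls. The log2 fold changes of 1.70 (SE 1.28) and 2.11 (SE 1.25) were -1.30 and -0.69 without portal 3. Over 27 genes of this kind the median was 0.55 with 22 above 0 and 0 with p under 0.05, and the median ran from -0.69 without portal 3 to 1.68 without control 3. IFI6 did not follow MX1, at 8158, 87627 and 44718 in the controls and 70568, 15257, 14608 and 49930.4 in the portal livers, with its highest value in control 2.

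Heat shock genes had a median of -0.47, 19 of 22 under 0 and 0 with p under 0.05. HSPA8, the constitutive chaperone, was at 61116, 7572 and 66162 in the controls and 8916, 10908, 20138 and 20263 in the portal livers, control 2 lying below all portal livers and the other controls above them (log2 fold change -1.63 (SE 0.77)). HSPB1, a small heat shock protein, was at 987, 12303 and 15609 and 108913, 1149, 1838 and 19099, highest in portal 1. The median of the list was 0.04 without control 3, and -0.79 without portal 1, portal 4, control 2 and arterial 1. In the latter fit 21 of 22 were under 0 and 6 had p under 0.05, all lower (846 of all 15544 genes tested in that fit).

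**Figure D4:**
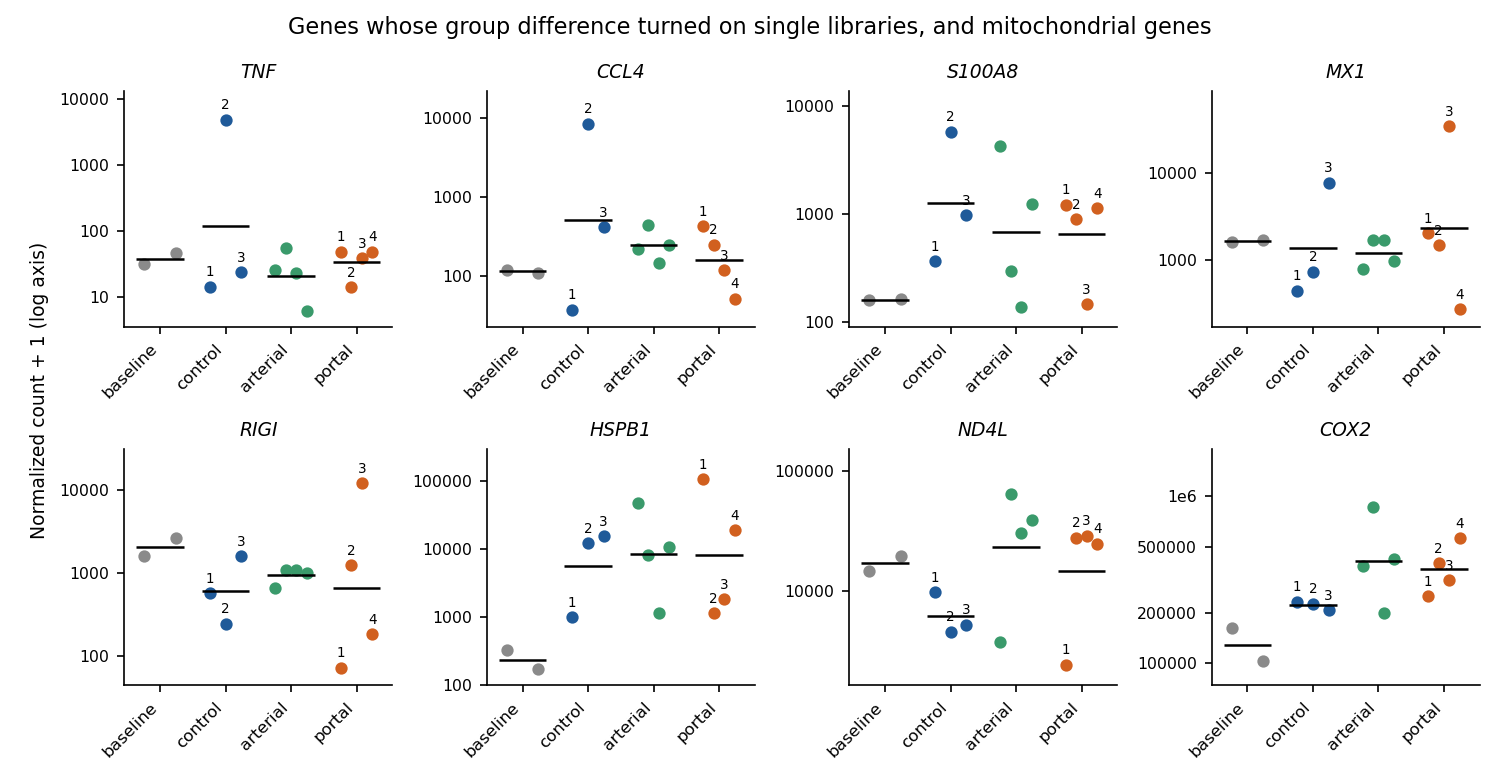
Normalized count plus 1 on log axes for 8 genes, drawn as in the plot of 12 genes. TNF and CCL4 are high in control 2 alone, MX1 and RIGI are highest in portal 3, HSPB1 is highest in portal 1, and ND4L is low in portal 1 while COX2 lies above the controls in all 4 portal livers.

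All 13 mitochondrially encoded genes had a log2 fold change above 0, with a median of 0.70 and 0 with p under 0.05. The sign was the same for all of them under RLE and upper quartile scaling and without the 4 libraries, while 1 gene had a log2 fold change under 0 with genes detected as a covariate, 1 without control 3 and 1 without portal 4. COX2 and COX3, subunits of cytochrome c oxidase, were the 2 that did not overlap, COX2 at 233378, 228305 and 208591 in the controls and 252023, 398891, 315903 and 560644 in the portal livers (log2 fold change 0.74 (SE 0.52)), and COX3 at 324971, 362856 and 403564 and 450511, 537412, 429134 and 802473 (log2 fold change 0.57 (SE 0.49)). ND4L, a subunit of complex I, was at 9807, 4621 and 5299 and 2454, 27806, 28980 and 24741, so that portal 2, 3 and 4 lay above every control and portal 1 below every control (log2 fold change 1.66 (SE 0.84), unadjusted p = 0.0669). The arterial livers had the same split, at 3819, 64367, 30288 and 38767, arterial 1 being the low one. Together these genes held from 4.84 to 7.94% in the controls and from 5.58 to 16% after portal infusion of all counts. The nuclear genes of the respiratory chain had a median of -0.18, with 28 of 30 under 0, and cytosolic ribosomal proteins one of -0.21, with 28 of 31 under 0. Both medians changed sign without control 2, to 0.07 and 0.33.

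Lists of hepatocyte genes had medians between -0.23 and 0.15. ALB, at 630487, 530402 and 1308990 in the controls and 520054, 864341, 1355500 and 468110 in the portal livers, was counted highly in every library. The 13 hepatocyte markers, ALB among them, had a median log2 fold change of -0.23, or 0.21 without the 4 libraries. The median was -0.04 over 26 plasma protein genes, 0.10 over 22 genes of cytochrome P450 and conjugation, -0.05 over 18 of bile acid synthesis and transport, and 0.15 over 29 of fatty acid oxidation. Without the 4 libraries these medians were 0.31, 0.29, 0.06 and 0.21. Of these 4 lists 2 genes had p under 0.05, both lower (1.66% of all genes were lower at that p). They were FMO5, a flavin monooxygenase, at 618, 1161 and 1500.3 in the controls and 839, 658, 269 and 434 in the portal livers (log2 fold change -1.03 (SE 0.46)), and ECI1, an enzyme of beta oxidation, whose groups did not overlap (log2 fold change -0.69 (SE 0.32)). TAT, the tyrosine aminotransferase induced by glucocorticoids, was at 78230.3, 43350.2 and 31452 in the controls and 6741, 14981, 13538 and 37065 in the portal livers, with portal 4 above control 3 (log2 fold change -1.55 (SE 0.54), and -1.05 without control 1). LCN2, an acute phase protein of hepatocytes and neutrophils, was higher, at 2944, 3711 and 1554 in the controls and 3382, 5959, 7105 and 8671 in the portal livers, with portal 1 below control 2 (log2 fold change 1.18 (SE 0.47)). It was the only one of 15 acute phase genes with p under 0.05 (1.13% of all genes were higher at that p). The median of that list was -0.02, or 0.27 without the 4 libraries.

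Hypoxia genes had a median of -0.08 and glycolysis, gluconeogenesis and glycogen genes one of -0.36. In both lists LDHA, lactate dehydrogenase, was the member with p under 0.05 (1.66% of all genes were lower at that p). LDHA was at 7971, 1999.8 and 4048 in the controls and 2211, 3097, 2226 and 1931 in the portal livers (log2 fold change -1.04 (SE 0.47), and -0.36 without control 1). CHAC1, a target of the integrated stress response that degrades glutathione, was at 2372, 228 and 686 in the controls and 215, 70, 215 and 434 in the portal livers, with control 1 far above the rest (log2 fold change -2.33 (SE 0.98), and -1.01 without control 1), and the median of its list was -0.27, or 0.04 without the 4 libraries, where that of the hypoxia genes was -0.44. Urea cycle and amino acid genes had a median of -0.29. Genes of endothelium and sinusoidal flow had a median of -0.45 with 21 of 26 under 0. Medians of cell cycle, p53 and clock genes were 0.27, -0.08 and -0.01, and that of 29 proteasome genes was -0.00015, and without the 4 libraries they were 0.38, 0.14, 0.12 and 0.24. Cholangiocyte markers had a median of -0.58 over 11 genes and were 0.10 without control 3. Erythroid and platelet markers, 6 and 6 genes tested with many counts of 0, had medians of -0.90 and 0.12, and of 0.13 and -0.99 without the 4 libraries. The erythroid median was 1.55 without control 2.

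**Figure D5:**
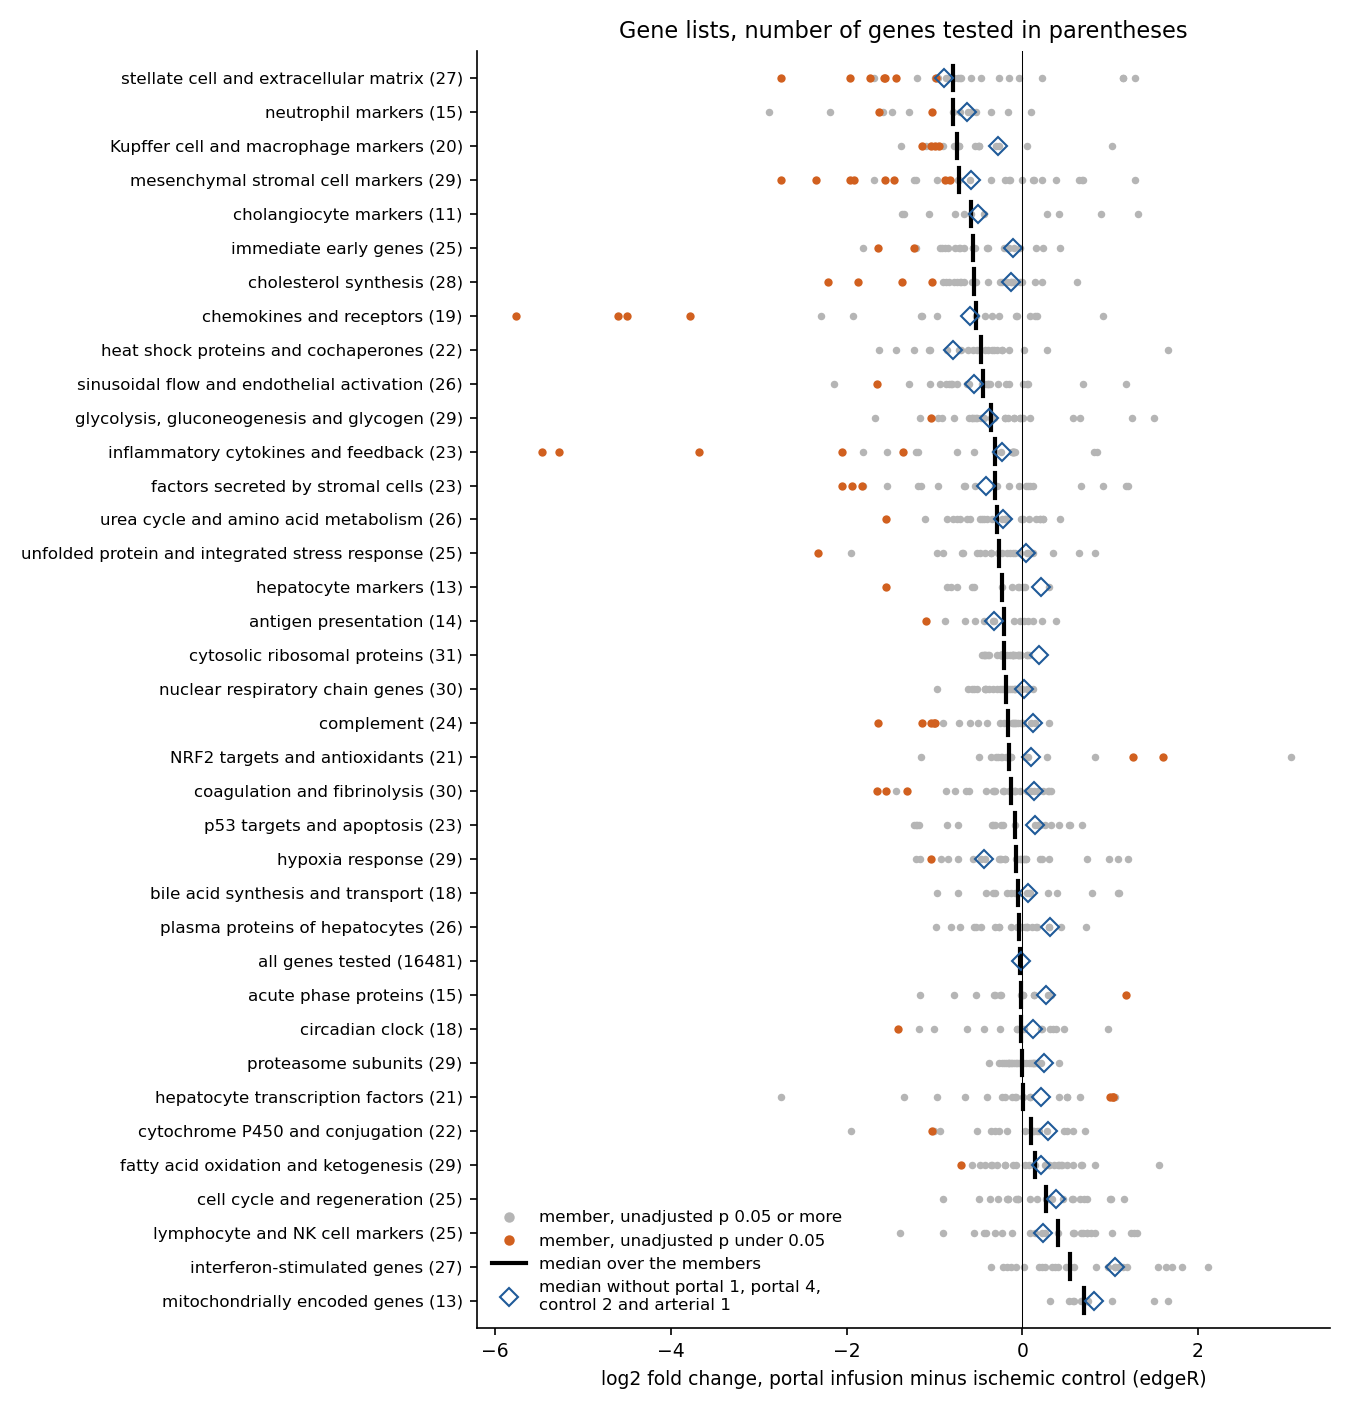
Log2 fold change of portal infusion minus ischemic control for each tested member of the gene lists (points, orange where the unadjusted p is under 0.05), ordered by the median of each list (black bars), with the median without portal 1, portal 4, control 2 and arterial 1 as open diamonds. Of the lists drawn, the matrix, neutrophil and macrophage lists have the lowest medians, -0.79, -0.79 and -0.74, and mitochondrially encoded genes the highest, 0.70. The erythroid and platelet lists, with 6 genes tested each, and the genes the study names are not drawn.

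Some genes that the study names in its own comparisons had no consistent order between portal and control livers. EPO was at 79.9, 154 and 44.8 in the controls and 196, 0, 3.01 and 135 in the portal livers, high in portal 1 and portal 4 and near 0 in portal 2 and portal 3. CXCR4 was at 177, 117 and 264 and 247, 172, 73.2 and 251, GZMB at 23.7, 175 and 106 and 138, 39.2, 42.1 and 63.8, and PPARA at 311, 222 and 210.3 and 206, 451, 414 and 359. The exact permutation p was 0.4 for EPO, 0.8 for CXCR4, 0.743 for GZMB and 0.2 for PPARA (two-sided, unadjusted). CDC42EP5, an effector of the GTPase CDC42, was at 619, 3639 and 442 in the controls and 877, 180.3, 100.3 and 756 in the portal livers, and its log2 fold change of -1.75 (SE 0.80) was -0.25 without control 2. RETN, AK5 and CYP7A1, which starts the conversion of cholesterol to bile acids, overlapped, with 78.3, 1352 and 212, 52.2, 12.3 and 16.6 and 3.96, 21 and 123 in control livers and 345, 72.9, 12 and 65, 6.29, 3.74, 0 and 47.8 and 0, 48.6, 51.2 and 17.2 in portal livers respectively. SCN9A, a sodium channel gene, had no count in the controls and was at 0, 22.4, 52.2 and 0 in the portal livers, present only in portal 2 and portal 3. The small nucleolar RNA genes SNORD21 and SNORD24 were at 11.9, 33.3 and 32.5 and 8.7, 10.5 and 7.95 in the controls and 0, 198, 276 and 33.1 and 0, 59.8, 104 and 31.9 in the portal livers, with log2 fold changes of 2.34 (SE 1.52) and 2.45 (SE 1.44) and their 0 in portal 1.

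The route of infusion was compared directly because both infusion groups share the controls. Portal against arterial infusion gave 0 of 16481 genes with an adjusted p under 0.05 in edgeR (0% called) and 396 (2.40%) without adjustment, and DESeq2 called 1. DDIT4L and PCSK1N were lower after portal than after arterial infusion as well, by log2 fold changes of -4.70 (unadjusted p = 0.00074) and -3.59 (unadjusted p = 0.00684), a comparison that uses the same 4 portal livers. SLC22A7 and LCN2 were higher after portal infusion, with portal minus arterial log2 fold changes of 1.24 and 1.36 (unadjusted p = 0.0206 and 0.00674). C1QA, C1QB and C1QC had log2 fold changes between the routes of 0.07, 0.15 and -0.02, and GCLM of 0.01. For INSIG1, MFSD2A and ITGB5 they were -0.66, -0.35 and -0.36, with unadjusted p between 0.109 and 0.342.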

How the data were processed

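Poly-A RNA of pig livers was made into libraries that do not mark strand. Per the paper's methods, the authors used HISAT2 to align paired-end reads to Sscrofa11.1 and FeatureCounts with Ensembl gene models to count them, and deposited the raw counts of 35670 genes. Tool versions and the treatment of multi-mapping reads are not given in the sources used here, and the kit for RNA extraction is named differently in the labels and the paper. Genes that overlap on opposite strands or have near-identical copies cannot be told apart in such counts.

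Groups came from the labels, 1 column per library, with 0 columns left over. No 2 libraries of a group were copies (smallest chi-square per gene 72.1). Testing was by edgeR 4.0.16 under R 4.3.3 (quasi-likelihood, TMM factors, filterByExpr, Benjamini-Hochberg, threshold 0.05), all 13 libraries in 1 fit of 4 groups. Normalized counts were divided by DESeq2 1.42.0 size factors. Other fits used DESeq2, limma 3.58.1 and sva 3.50.0. The edgeR fit was also run on simulated counts and the permutation test on small sets of made-up values, with outcomes not given here. Exact tests used log2(normalized count + 1).

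The 39 gene lists and the members were chosen with earlier results of these data known. Named genes were, by rule, the 12 higher and 12 lower genes with the smallest p among those whose groups did not overlap, genes DESeq2 called, genes the study names, and per list the member with the smallest p in each direction and the 2 highest-count members. Further list members with p under 0.05 were named after their values were seen: C1QB, CSF1R, C5AR1, C7, GCLC, NR1I2, FOXA2, COL1A2, SPARC, MMP2, COL4A1, PDGFRB, VIM, CCN2, GDF15, PTGS2, CCL4, IL1R2, OSM, PLAU, F13A1, SC5D, MSMO1, IDI1, IL1A, CCL8, DCN, LOX, COL6A3 and NCF4, as was COX2. Where a symbol had several rows the one with the most counts was used. The number of libraries limits precision. The edgeR p-values of the main fit set a difference against the spread between libraries within groups, estimated over all 13 libraries. Counts are reads and not molecules.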

Additional observations from a re-analysis of the deposited data

Results flagged for a closer look

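Within the 4 portal livers 1 value stood apart from the other 3 by Dixon's criterion (the gap to the nearest value over the whole range) for 7 of 86 genes and 0 of 4 library measures, where chance alone gives about 5%, or 4.5. Portal 4 was low for H2BC21 (ratio 0.861) and for NEU1 (0.862). Portal 1 was low for ND4L (0.936) and ND4 (0.938), the latter at 42005, 249842, 233865 and 223791 normalized counts in portal livers 1 to 4. Portal 2 was high for IL1R2 (0.831). In PLXDC1 and CCL26 the ratio was 1 because 1 liver, portal 2 and portal 3 respectively, had reads and the other 3 had none.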

How the results depend on the processing

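The count of 0 genes called held with edgeR over the 7 libraries alone, robust estimation, RLE and upper quartile factors, at least 10 counts per library, no small RNA or mitochondrial genes, 1 surrogate variable, genes detected as a covariate, voom with quality weights, without portal 1, portal 4, control 2 and arterial 1, and without each of the 7 libraries in turn (383 to 601 genes with unadjusted p under 0.05). DESeq2 called 4 genes over 13 libraries and 3 over 7 libraries, the 3 being higher and without a symbol. Without a filter on low counts edgeR called 14 of 24918, among them TNF, CCL3L1, CCL4, COL1A1, COL6A2 and MTUS1. For portal against arterial infusion DESeq2 called 1 and the fit without a filter 5. The cause of these differences was not tested. Of the log2 fold changes in the text, that of TNF was 0.49 without the 4 libraries and 0.92 without control 2, ranging from -6.14 over single libraries left out, that of CCL8 was 0.60 without the 4 libraries, and those of MX1 and RIGI ranged from -1.30 to 3.99 and from -0.69 to 3.05, the negative values without portal 3. Leaving out 1 library moved 31 of 86 fold changes by over 1.5 times, and leaving out the 4 libraries moved 23. Against 460 genes with unadjusted p under 0.05, there were 2311 with voom, 1454 without the 4 libraries, 1200 with the surrogate variable, 969 with genes detected as a covariate, 904 with DESeq2, 1144 without a filter, 279 with at least 10 counts per library and 219 with edgeR over 7 libraries. Against 396 for portal and arterial infusion there were 883 with DESeq2, 1264 without a filter, 237 with at least 10 counts per library, 618 with the surrogate variable, 692 without the 4 libraries, 112 with the block, and 666 and 686 without portal 2 and portal 3. The replicate number as a block gave 0 calls and 225 genes with unadjusted p under 0.05, with a median log2 fold change of -0.20. Same-numbered control and portal livers are different pigs. Their deviations correlated at -0.42, -0.40 and 0.10, and 1 of 3 controls correlated best with its own number. So few pairs cannot settle whether same-numbered livers have anything else in common. The alternatives for portal against arterial infusion, for list medians under other tests and for genes named after their values were seen were added after seeing the data. Detection limits DDIT4L, PCSK1N, RGMA, PLXDC1, CCL26 and OSM, where a count of 0 allows up to 3 reads.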
